A study of Mus musculus with 3 samples.

Results

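The 7 genes described are the members of the villin and gelsolin family other than Vil1, namely Avil, Vill, Gsn, Scin, Capg, Flii and Svil. They were chosen by symbol from the 31053 genes of the deposited single-cell matrices, and all 7 were found. Vil1, the gene of villin itself, was used only as a reference. The mouse small intestine was divided into duodenum, jejunum and ileum, and live, propidium iodide-negative epithelial cells together with intraepithelial immune cells were sorted and sequenced with the 10x Genomics 3′ chemistry. Every library was made from WT C57BL/6N males aged 12 weeks, 3 mice pooled per segment, with no treatment. Each segment was thus 1 library, and no comparison between segments could be tested against the variation between mice.

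Proteins of this family share a repeated gelsolin domain, which binds actin and in most members is switched on by calcium. They cut actin filaments, cap their fast-growing ends or start new ones, and those with a villin-type headpiece can also tie filaments into bundles such as the cores of microvilli. Villin is the classical member of the intestinal brush border, whereas gelsolin (Gsn) is a widespread severing and capping protein, scinderin (Scin, also adseverin) is known from secretory cells, and CapG (Capg) caps filaments without cutting them. Advillin (Avil) is best known from sensory neurons, flightless I (Flii) joins gelsolin repeats to leucine-rich repeats, supervillin (Svil) links actin to membranes, and villin-like (Vill) is little characterized.

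The genes lie on separate chromosomes (GRCm38, GENCODE M21). Avil is at chr10:127000709-127020994 on the plus strand and overlaps Tsfm on the other strand. Vill is at chr9:119052778-119071525, Gsn at chr2:35256380-35307892 and Capg at chr6:72544391-72562983, all on the plus strand. Scin is at chr12:40059769-40134228 and Flii at chr11:60714123-60727263, both on the minus strand, and Flii overlaps Llgl1 on the other strand. No member overlaps another counted gene on its own strand.

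The promoters of 3 members with strongly class-dependent levels are shown, as the 250 bases before the annotated start (RefSeq, GRCm38.p6), read 5′ to 3′ on the strand of the gene. Capitals mark matches, on either strand, to 4 short motifs. The octamer core was searched for as ATGCAAA. The letters AGATAA were taken for a GATA-type site. A GC-rich site was searched for as GGGCGG, and the core promoter element as TATAAA. These motifs do not overlap each other in the sequences shown.
Avil, chr10:127000459-127000708, plus strand: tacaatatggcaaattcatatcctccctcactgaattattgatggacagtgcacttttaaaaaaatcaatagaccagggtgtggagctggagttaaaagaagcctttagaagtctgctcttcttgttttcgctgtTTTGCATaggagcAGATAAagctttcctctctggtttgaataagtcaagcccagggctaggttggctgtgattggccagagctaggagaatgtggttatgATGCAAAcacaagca
Scin, chr12:40134229-40134478, minus strand: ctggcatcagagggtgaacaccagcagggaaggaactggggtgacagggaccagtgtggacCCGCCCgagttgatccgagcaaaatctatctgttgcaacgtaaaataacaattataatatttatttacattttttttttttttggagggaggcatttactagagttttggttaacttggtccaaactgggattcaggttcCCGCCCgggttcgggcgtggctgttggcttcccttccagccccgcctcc
Vill, chr9:119052528-119052777, plus strand: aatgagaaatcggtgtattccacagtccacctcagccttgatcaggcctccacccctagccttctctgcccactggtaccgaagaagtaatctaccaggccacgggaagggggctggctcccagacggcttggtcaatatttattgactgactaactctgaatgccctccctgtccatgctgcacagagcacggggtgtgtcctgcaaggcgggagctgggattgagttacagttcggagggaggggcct

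The Avil promoter held 2 octamer cores, which begin 115 and 15 bases before the start, and 1 GATA-type site at 102 bases. Of 32851 promoters of the same length, 4.12% held an octamer core and 0.247% held at least 2, while 9.99% held the GATA-type site. The octamer core is a sequence known to be read by POU-domain factors. Scin held 2 GC-rich sites, a motif found in 32.7% of promoters, and Vill held none of the 4 motifs. The core promoter element was in 12.4% of promoters and in none of these 3. The GC content was 42.0% for Avil, 49.2% for Scin and 56.4% for Vill, beside a median of 52.4% over all promoters. Capg and Gsn, whose levels also depended on class, are not shown. Each of the 3 promoters of Gsn held a GC-rich site, and those of Capg and Flii held none of the 4 motifs. All these matches describe the letters only.

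The libraries held 98518847 (duodenum), 87656078 (jejunum) and 78074516 (ileum) unique molecular identifiers (UMIs, 1 per captured RNA molecule), and 4255 of 9501, 4360 of 8139 and 8071 of 9595 barcodes passed the cell filters of the study. Median depth per kept cell was 12424, 11737 and 5536 UMIs, and the median mitochondrial share was 27.1%, 27.2% and 11.1%, so the ileal library stood apart in both. Between 4 and 12 kept barcodes were shared by a pair of libraries. Clusters were named from marker lists, which gave 10577 enterocytes, 1050 early enterocytes, 223 intestinal stem and proliferating cells (ISC), 747 goblet, 24 Paneth, 300 tuft and 170 enteroendocrine cells (EECs), 1225 T cells, 522 B cells, 87 IgA B cells, 26 macrophages or monocytes and 24 dendritic cells. Another 1711 cells stayed unnamed. Of these, 1053 formed a cluster led by Gm26917, Fgf15 and Fabp6, and 732 of its cells were ileal. Enterocyte markers summed there to 407 UMIs per 10000 and early enterocyte markers to 180. These cells are not among the enterocytes compared below. The names rest on these rebuilt clusters and may differ from those of the study. RNA of enterocytes was found in every class: the 13 enterocyte markers summed to 942 UMIs per 10000 in enterocytes, 166 in tuft cells, 128 in B cells, 121 in T cells, 118 in EECs and 92.3 in goblet cells.

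Levels are given as UMIs of a gene per 10000 UMIs of all cells of a class in a library, followed by 95% Poisson limits (exact, for counting error alone). Classes were compared with enterocytes by the quasi-likelihood test of edgeR on counts summed per class and library, blocked by library, and p-values were adjusted over 12760 genes by the method of Benjamini and Hochberg. The p-values thus measure how much class differences varied over 3 libraries that also differ in segment. That spread was estimated over all classes in the same fit. It does not cover variation between mice, which were pooled in each library. Fold changes are relative to the TMM scaling. Library sizes alone moved the median of all genes by 0.26 (early enterocytes) to 0.75 (EECs) on the log2 scale, except in goblet cells (-0.01), and raised the share of higher calls, for example from 50.7% to 71.8% in tuft cells. In bulk sums such as these, fewer expressing cells and less RNA per cell cannot be told apart, and shares of cells are therefore given beside levels.

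**Figure D1:**
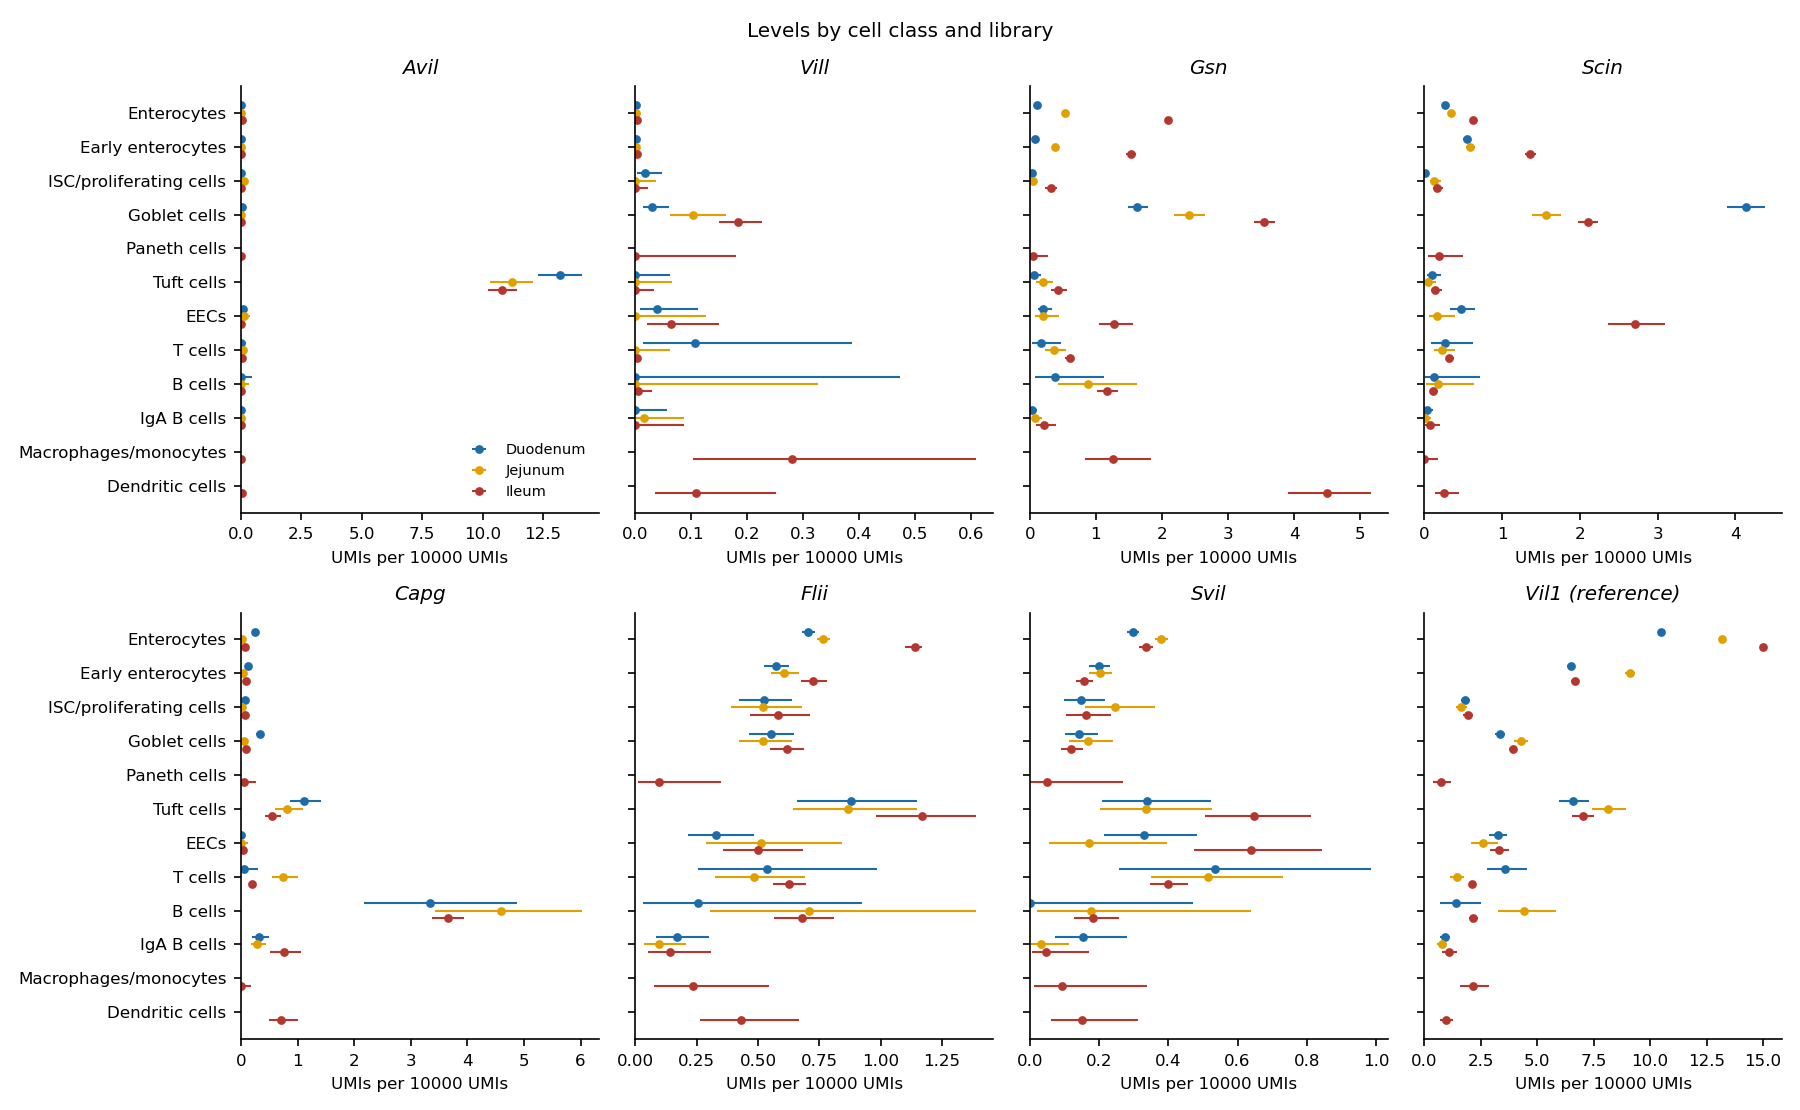
UMIs per 10000 UMIs (x axis) of the 7 members and of Vil1 as reference in 12 cell classes (y axis), with 1 point per library of at least 10 cells and bars for exact 95% Poisson intervals. Each panel has its own x axis starting at 0. Avil points above 10 belong to tuft cells alone, Capg points above 3 to B cells, and the highest Scin point is the duodenal goblet cells at 4.13.

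Avil was highest in tuft cells, the chemosensory cells of the epithelium. Its level in tuft cells was 13.2 UMIs per 10000 in the duodenum (12.3 to 14.1, 47 cells), 11.2 in the jejunal library (10.3 to 12.1, 66 cells) and 10.8 in the ileum (10.2 to 11.4, 187 cells). No other class of at least 10 cells exceeded 0.136 in any library. In enterocytes the level was 0.00295 in the duodenum, 0.0103 in the jejunal library and 0.0227 in the ileum. The tuft cell and enterocyte values thus did not overlap, and the fitted log2 fold change was 9.43 ± 0.70 (SE, adjusted p = 1.13e-10, edgeR). It was 8.69 without the duodenal library and 10.38 without the ileal one. Ratios within a library were 4468 (2543 to 8684) in duodenum, 1089 (804 to 1508) in jejunum and 476 (377 to 611) in ileum.

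Nearly every tuft cell held the transcript. An Avil UMI was found in 291 of 300 tuft cells (97.0%) at a median depth of 5519 UMIs, and up to 54 Avil UMIs were counted in 1 cell. The share was 97.9% in the duodenum, 98.5% in the jejunal library and 96.3% in the ileum. With every cell thinned to 800 UMIs the share was 53.2% (38.1 to 67.9, exact binomial 95% interval), 57.6% (44.8 to 69.7) and 62.0% (54.7 to 69.0), and the 3 intervals overlapped. Enterocytes, at a median of 9922 UMIs, held an Avil UMI in 1.19% of cells, or 0.199% after thinning. The 11 tuft markers summed to 138 UMIs per 10000 in tuft cells and to 0.359 in enterocytes, so their enterocyte counts were low as well. Goblet cells held 13 Avil UMIs in duodenum, 1 in jejunum and 8 in ileum, and the fitted difference from enterocytes was not past the threshold (adjusted p = 0.325, edgeR).

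Of the other members in tuft cells, Capg was higher than in enterocytes and Gsn and Scin were lower, so that 4 of the 7 members passed the test beside 46.9% of all genes. Capg reached 1.12 UMIs per 10000 in the duodenum (0.863 to 1.42), 0.813 in the jejunal library and 0.549 in the ileum, against 0.240, 0.0240 and 0.0654 in enterocytes. Its tuft cell values lay above its enterocyte values in all 3 libraries (log2 fold change 2.66 ± 0.56, adjusted p = 0.000308, edgeR), with 1.93 without the jejunal library and 3.29 without the duodenal one. Gsn counted only 4, 11 and 48 UMIs in tuft cells and Scin 6, 3 and 16, and their log2 fold changes were -2.21 ± 0.49 (adjusted p = 0.000520, edgeR) and -2.64 ± 0.63 (adjusted p = 0.00102, edgeR). The Gsn values overlapped between the classes: the highest tuft level (0.425, ileum) exceeded the lowest enterocyte level (0.105, duodenum), and without library as a block Gsn was not called. No Vill UMI was counted in 300 tuft cells. Vil1 itself stood at 7.19 UMIs per 10000 in tuft cells and 12.8 in enterocytes (log2 fold change -1.39 ± 0.30, adjusted p = 0.000382, edgeR).

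Capg was highest in B cells. Its level there was 3.33 UMIs per 10000 in the duodenum (2.17 to 4.87, 32 cells), 4.59 in the jejunal library (3.43 to 6.02, 24 cells) and 3.65 in the ileum (3.38 to 3.93, 466 cells), and the 3 intervals overlapped. All 3 lay above every enterocyte value (log2 fold change 4.82 ± 0.60, adjusted p = 1.61e-07, edgeR). Without the jejunal library this value was 3.99 and without the duodenal one 5.65. The excess over enterocytes was uneven, at 13.9-fold in the duodenum (9.02 to 20.5), 191-fold in the jejunal library (135 to 269) and 55.8-fold in the ileum (47.7 to 65.4). A Capg UMI was found in 291 of 522 B cells (55.7%), or in 20.9% (17.5 to 24.6) at 800 UMIs, compared with 1.00% of enterocytes at that depth. IgA B cells, which secrete antibody, held 0.321, 0.283 and 0.751 UMIs per 10000, below the B cells of the same library each time. Macrophages counted no Capg UMI in 26 cells, although CapG is known from macrophages, and the interval allows up to 0.126 per 10000. When the members were allowed among the genes used for clustering, 611 cells were called B cells and their Capg level was 2.34.

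B cells differed from enterocytes in 4 of the 7 members beside 56.7% of all genes. Scin, Flii and Svil were lower, with log2 fold changes of -2.90 ± 0.76 (adjusted p = 0.00201), -1.27 ± 0.25 (adjusted p = 8.14e-05) and -1.70 ± 0.45 (adjusted p = 0.00207, all edgeR). Scin in B cells rested on 1, 2 and 21 UMIs, and its call was lost without the ileal library (log2 fold change -1.79). Svil rested on 0, 2 and 34 UMIs, was at -2.51 without the ileal library, and its call was lost with library sizes alone (-1.04, adjusted p = 0.0528, edgeR). In T cells 4 of 7 members passed beside 63.2% of all genes: Capg was higher and Gsn, Scin and Flii were lower. T cell Capg was 0.0535 UMIs per 10000 in the duodenum (1 UMI), 0.747 in the jejunal library (45 UMIs) and 0.200 in the ileum (106 UMIs), and overlapped the enterocyte range. Its log2 fold change was 1.40 ± 0.61 (adjusted p = 0.0492, edgeR) and was -0.23 (adjusted p = 0.807) without the jejunal library and 2.14 without the duodenal one. This call held in 9 of 17 alternative settings. The Gsn call (-1.75 ± 0.47) was lost without the ileal library (-0.97) and the Scin call without the jejunal or the ileal one, and both were lost with library sizes alone. Flii in T cells was lower by a log2 fold change of -1.46 ± 0.22 (adjusted p = 2.29e-06, edgeR).

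Goblet cells, the mucus secreting lineage, held more Scin, Gsn and Vill than enterocytes and less Flii and Svil, so that 5 of 7 members passed beside 39.5% of all genes. Scin stood at 4.13 UMIs per 10000 in duodenal goblet cells (3.89 to 4.38), 1.56 in the jejunal library (1.39 to 1.76) and 2.10 in the ileum (1.97 to 2.23). The enterocyte values were 0.270, 0.343 and 0.626, so the groups did not overlap (log2 fold change 2.84 ± 0.47, adjusted p = 1.95e-05, edgeR, or 1.89 without the duodenal library). The excess was 15.3-fold in the duodenum (14.1 to 16.6), 4.57-fold in the jejunal library and 3.35-fold in the ileum. The duodenal goblet cells stood apart in the share of cells too: 29.4% (22.9 to 36.7) held a Scin UMI at 800 UMIs, against 8.64% in the jejunal library and 9.63% in the ileum, beside 2.54% of enterocytes. In the jejunum and ileum 66.7% and 66.6% of the Scin UMIs came from the tenth of goblet cells with most of them, while in the duodenum the figure was 34.2%.

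Gsn in goblet cells followed another order of segments, with 1.63 UMIs per 10000 in the duodenum (1.48 to 1.79), 2.41 in the jejunal library (2.19 to 2.65) and 3.55 in the ileum (3.39 to 3.72). In the same libraries enterocytes held 0.105, 0.539 and 2.09, so ileal enterocytes overlapped duodenal goblet cells. The log2 fold change within libraries was 2.31 ± 0.40 (adjusted p = 3.89e-05, edgeR), or 1.42 without the duodenal and 3.07 without the ileal library, and the call was lost without library as a block (log2 fold change 1.46, adjusted p = 0.240, edgeR). The ratio of goblet cells to enterocytes was 15.6 (13.6 to 17.8) in the duodenum, 4.47 (4.03 to 4.95) in the jejunal library and 1.70 (1.62 to 1.79) in the ileum. Gsn was found in 65.6%, 67.9% and 83.2% of goblet cells and in 37.2% of all enterocytes. At 800 UMIs the goblet cell shares were 8.89%, 16.7% and 24.7%. Goblet cells were not the highest class, since the 24 dendritic cells held 4.35 Gsn UMIs per 10000 (3.81 to 4.95), while all goblet cells held 2.80, macrophages 1.41 and B cells 1.12. These sums mix the segments unequally, with 20 of the dendritic cells, 19 of 26 macrophages and 466 of 522 B cells from the ileum. Within the ileum dendritic cells held 4.50 (3.91 to 5.16), above goblet cells. Ileal macrophages (1.26) and B cells (1.17) lay below ileal enterocytes (2.09).

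Vill was scarce everywhere. Most of its UMIs came from goblet cells, at 0.126 per 10000 over the 3 libraries (0.104 to 0.150). The 26 macrophages stood at 0.240 (0.0965 to 0.494), and the intervals overlapped. Goblet cells held 8 Vill UMIs in duodenum, 19 in jejunum and 93 in ileum, or 0.0302 (0.0130 to 0.0595), 0.103 (0.0621 to 0.161) and 0.184 (0.149 to 0.226) per 10000. The 10577 enterocytes held 1, 4 and 9 UMIs. The fitted log2 fold change was 6.13 ± 0.79 (adjusted p = 8.40e-07, edgeR), and 9.77% of goblet cells held a UMI against 0.132% of enterocytes, at median depths of 9932 and 9922 UMIs. At 800 UMIs only 10 of 747 goblet cells held one. Macrophages held 7 Vill UMIs, found in 19.2% of the cells, and the 24 dendritic cells held 5 (0.0926 per 10000), found in 20.8% of them, at median depths of 10888.5 and 22880.5 UMIs. These classes were too small for a test.

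Over the 7 members the median fitted log2 fold change was -0.73 in early enterocytes, -1.39 in ISC, 1.05 in goblet cells, -0.38 in tuft cells, -0.50 in EECs, -0.37 in T cells and -0.89 in B cells. Over all genes tested the medians were -0.10, 0.02, -0.06, -0.05, 0.04, 0.01 and -0.11 in the same order. The sign depended on the scaling in tuft cells, EECs and T cells, where the members' medians were 0.18, 0.29 and 0.43 with library sizes alone, beside 0.47, 0.79 and 0.75 over all genes. Under that scaling the median stayed below 0 in early enterocytes (-0.43), ISC (-0.75) and B cells (-0.25) and above 0 in goblet cells (1.06). Each median is the value of the middle member. With TMM this was Avil in goblet cells (adjusted p = 0.325) and B cells (adjusted p = 0.709) and Capg in ISC (adjusted p = 0.0932, all edgeR), none of them called. In early enterocytes it was Flii, which was called (adjusted p = 0.00329, edgeR).

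Flii and Svil, the latter at chr18:4920540-5119299 on the plus strand, varied least between classes. Flii, with 0.705, 0.766 and 1.14 UMIs per 10000 in enterocytes and 0.879, 0.867 and 1.17 in tuft cells, overlapped between these classes, and the class levels ran from 0.134 in IgA B cells to 1.02 in tuft cells. Neighbours in that order overlapped in their library values down to ISC, among the 7 highest classes. It was lower in goblet cells by a log2 fold change of -0.60 ± 0.20 (adjusted p = 0.0156, edgeR), at 0.551, 0.521 and 0.616, a call lost without the jejunal or the ileal library, with the 20% limit on mitochondrial UMIs and with only the 2 classes in the fit. Svil was highest in tuft cells (0.490), EECs (0.434) and T cells (0.415), whose library values overlapped. It stood at 0.297, 0.379 and 0.336 in enterocytes. None of these classes passed the test for Svil, and with TMM scaling the fitted log2 fold changes were negative. They were -0.12 ± 0.33 in tuft cells (adjusted p = 0.808), -0.50 ± 0.34 in EECs (adjusted p = 0.233) and -0.37 ± 0.34 in T cells (adjusted p = 0.350, all edgeR). Goblet cells held 0.143, 0.168 and 0.119, below every enterocyte value (log2 fold change -1.26 ± 0.32, adjusted p = 0.00255, edgeR).

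**Figure D2:**
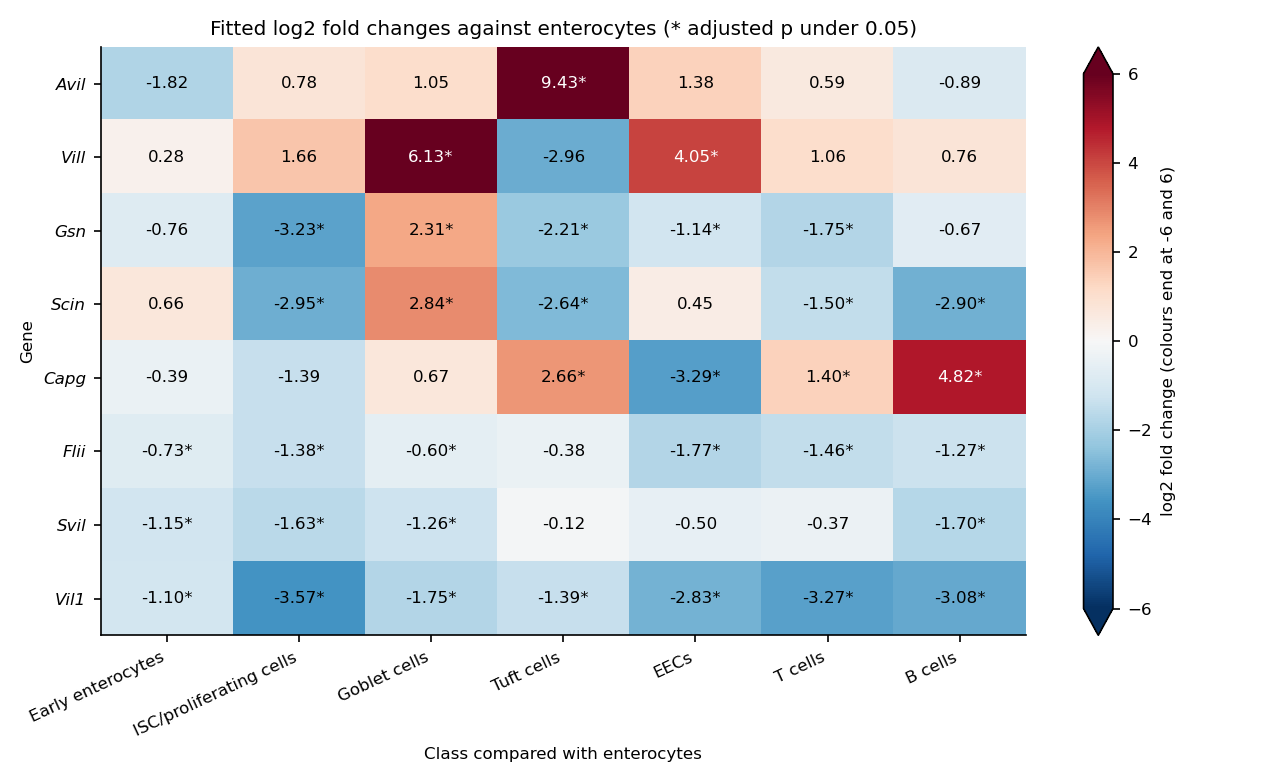
Fitted log2 fold changes (edgeR) of each gene (rows) in 7 classes (columns) against enterocytes. Red is higher and blue lower than in enterocytes, an asterisk marks an adjusted p under 0.05 over all genes, and Vil1 is the reference row. Avil in tuft cells is the largest value at 9.43, and the value of Vill in tuft cells rests on no UMI there and depends on the prior count.

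ISC, the dividing cells of the crypt, held less of several members than enterocytes. In all, 4 of 7 members passed, each lower, beside 63.8% of all genes. Gsn was at 0.0386, 0.0490 and 0.315 UMIs per 10000 from duodenum to ileum, below the enterocytes of each library, with a log2 fold change of -3.23 ± 0.48 (adjusted p = 1.81e-06, edgeR), or -3.83 without the duodenal library. Scin was at 0.00551 (1 UMI), 0.127 and 0.167, with a log2 fold change of -2.95 ± 0.56 (adjusted p = 5.72e-05, edgeR). Flii (-1.38 ± 0.20) and Svil (-1.63 ± 0.34) were lower too, with adjusted p-values of 1.72e-06 and 0.000151 (edgeR). Vil1, the reference, fell by 3.57 on the log2 scale in the same comparison.

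In early enterocytes, the cells of the villus base, Flii (-0.73 ± 0.19, adjusted p = 0.00329, edgeR) and Svil (-1.15 ± 0.30, adjusted p = 0.00287, edgeR) were lower, so that 2 of 7 members passed beside 41.2% of all genes. This count moved to 0 without the jejunal library, 1 without the ileal library and 5 when only the 2 classes entered the fit. Scin had higher levels in early enterocytes than in enterocytes of the same library, with 0.548, 0.591 and 1.36 UMIs per 10000, but the ranges overlapped and the difference did not pass (adjusted p = 0.235, edgeR). Early enterocytes were the deeper class, with a median of 24389.5 UMIs.

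EECs, the hormone secreting cells, differed from enterocytes in 4 of 7 members beside 55.2% of all genes. Vill was higher with a log2 fold change of 4.05 ± 1.09 (adjusted p = 0.00283, edgeR), which rested on 3, 0 and 5 UMIs in EECs and was 3.27 without the duodenal library. Capg, with 0, 0 and 3 UMIs, and Gsn, with 16, 6 and 100 UMIs, were lower (adjusted p = 0.0271 and 0.0327, edgeR). Both calls were lost with library sizes alone and with DESeq2 size factors, and so was Capg without the duodenal library (-1.70; -9.29 without the ileal one, where its EEC sums hold no UMI) and Gsn without the jejunal (-0.89) or the ileal one (-0.79; -1.76 without the duodenal one). Flii was lower at 0.329, 0.511 and 0.499 UMIs per 10000 (log2 fold change -1.77 ± 0.23, adjusted p = 3.72e-07, edgeR). Scin was uneven, with 0.469 UMIs per 10000 in the duodenum, 0.170 in the jejunal library (5 UMIs) and 2.71 in the ileum (2.36 to 3.10), and did not pass the test (adjusted p = 0.453).

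Within EECs, Scin UMIs were concentrated in a few cells. The tenth of EECs with most Scin held 81.1% of its UMIs, and 1 cell held 55. With subtypes assigned by the hormone thresholds of the study, the 8 L cells (Gcg, glucagon) held 9.50 Scin UMIs per 10000 (7.88 to 11.4) and the 21 K cells (Gip) held 1.69 (1.27 to 2.21). The 45 enterochromaffin cells (Tph1) held 0.267 (0.128 to 0.491), the 60 N cells (Nts, neurotensin) 0.705 (0.494 to 0.976), the 12 I cells (Cck) 0.767 and the 9 D cells (Sst) 0.131. In the L cells 7 of 8 cells held a Scin UMI, and 120 of their 121 UMIs came from 7 ileal cells. Ileal K cells held 5.55 (4.09 to 7.36, 7 cells), whereas duodenal K cells held 0.223 (8 cells). Gsn was highest in N cells at 1.63 (1.29 to 2.02), of which 53 of 60 were ileal. It counted no UMI in I cells, of which 9 of 12 were duodenal, and the interval allows up to 0.189. Duodenal enterocytes held 0.105, so subtype and segment cannot be told apart here. These subtypes hold too few cells for a test, and UMIs within a cell are not independent.

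**Figure D3:**
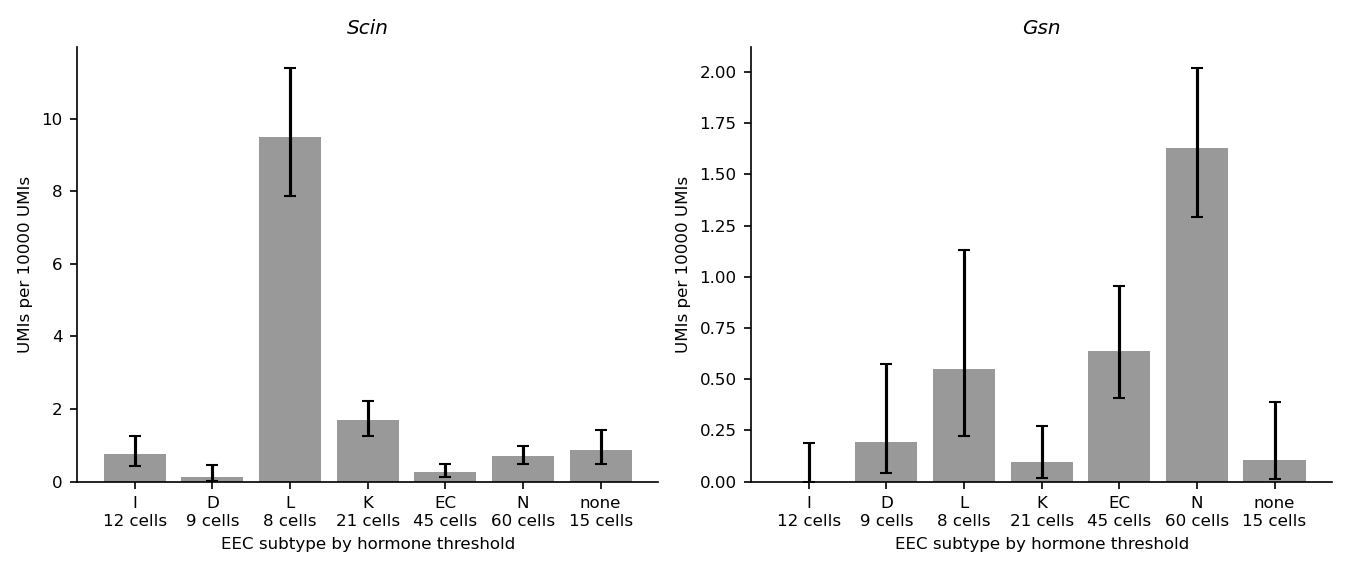
UMIs per 10000 UMIs (y axis, starting at 0) of Scin and Gsn in EEC subtypes (x axis, with the number of cells; none marks cells past no threshold), summed over the 3 libraries, with exact 95% Poisson intervals as bars. Scin reaches 9.50 in L cells and lies at 1.69 or below in the other subtypes, and Gsn is highest in N cells at 1.63.

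Along the intestine, enterocytes differed more in Gsn than in the other members with enough UMIs to compare. Its level was 0.105 UMIs per 10000 in the duodenum (425 UMIs), 0.539 in the jejunal library (2360 UMIs) and 2.09 in the ileum (6799 UMIs), so that the ileal value was 20.0-fold the duodenal one (18.1 to 22.1) and 3.87-fold the jejunal one (3.69 to 4.06). Vil1, the reference, differed by 1.42-fold between ileum and duodenum. Early enterocytes showed a Gsn ratio of 19.0 (14.9 to 24.7) and goblet cells one of 2.19 (1.97 to 2.43). At 800 UMIs per cell a Gsn UMI was found in 0.649%, 4.73% and 12.5% of enterocytes.

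Of the 5 members with at least 100 enterocyte UMIs in duodenum and ileum together, 3 differed by at least 2-fold, beside 28.7% of 10055 such genes. Scin was 2.32-fold higher in the ileum (at least 2.15 by its interval), a ratio that fell under 2-fold without mitochondrial UMIs in the denominator (log2 ratio 0.97) and without integration of the libraries (0.85). Capg went the other way, with 0.240 UMIs per 10000 in the duodenum (974 UMIs), 0.0240 in the jejunal library (105 UMIs) and 0.0654 in the ileum (213 UMIs). The duodenal level exceeded the jejunal one by 9.99-fold (8.16 to 12.3) and the ileal one by 3.66-fold (3.16 to 4.27). Flii (1.61-fold higher in the ileum) and Svil (1.13-fold) stayed within 2-fold. Goblet cells had the same Capg order, with 0.328, 0.0543 and 0.0812, whereas Scin in goblet cells was highest in the duodenum. In the mitochondrial share and in depth the ileal library differed from the others, and the part of this in the ratios was not tested beyond the alternatives given.

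The enterocytes of the 3 libraries filled different clusters. Duodenal enterocytes were most often in a cluster led by Slc2a2 and Slc4a7 (1088 of its 1815 cells), and ileal ones in a cluster led by Pck1 and Pdk4 (1051 of 1648). Within each of the 7 enterocyte clusters with at least 10 cells in every library, Gsn ran from ileum through jejunum to duodenum, and the ileum over duodenum ratio lay between 10.9 and 19.1. Capg was highest in the duodenum in all 7 clusters, and Scin was highest in the ileum in 6. In a cluster led by Nt5e, Slc28a2 and Ada, genes of the villus tip, duodenal Capg reached 397 UMIs in 410 cells (1.09 to 1.33 per 10000), compared with 0.0992 in the jejunal library and 0.0855 in the ileum.

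**Figure D4:**
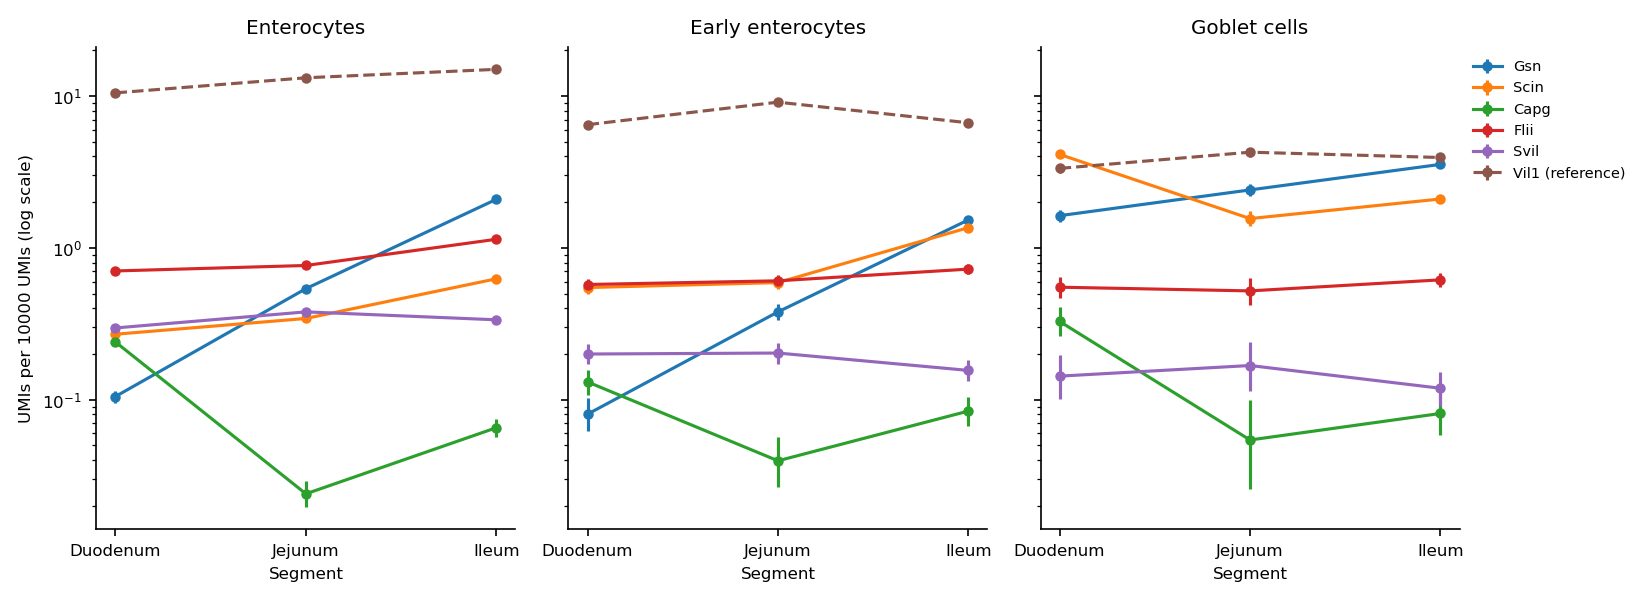
UMIs per 10000 UMIs (y axis, log scale) by segment (x axis) of 5 members and of Vil1 (dashed reference line) in enterocytes, early enterocytes and goblet cells, 1 library per point with exact 95% Poisson intervals. Gsn climbs from 0.105 to 2.09 in enterocytes, and Capg is highest in the duodenum in all 3 panels.

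Enterocytes were also ordered along the villus within each library by the share of tip landmarks among tip and bottom landmark UMIs, and divided into a bottom, a middle and a top group, of which the top and bottom groups were compared (edgeR, library as a block). Of the 6 members that could be tested, all 6 passed beside 50.5% of 11116 genes: Avil, Gsn, Capg, Flii and Svil were higher at the top and Scin was lower. Vill was too rare to test. Without library as a block, 0 passed in edgeR and 3 had an unadjusted p under 0.05, while DESeq2 with the block called 5. No landmark is a member, but the order was built from the same cells.

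Capg had the steepest rise, from 0.0699 UMIs per 10000 in the bottom group to 0.614 in the top group of the duodenum, from 0.00717 (11 UMIs) to 0.0501 in the jejunal library and from 0.0207 to 0.110 in the ileum. The top group exceeded the bottom group in all 3 libraries (log2 fold change 3.17 ± 0.26, adjusted p = 0.000171, edgeR). Scin fell from 0.374 to 0.110 in the duodenum, from 0.438 to 0.247 in the jejunal library and from 1.13 to 0.184 in the ileum (log2 fold change -1.34 ± 0.28, adjusted p = 0.00495, edgeR). Its ileal bottom group was the highest of the 9 values and its 3 top groups did not exceed 0.247.

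Gsn rose by a log2 fold change of 0.93 ± 0.18 (adjusted p = 0.00360, edgeR), with levels of 0.0854 and 0.156 in the duodenum, 0.594 and 0.614 in the jejunal library and 1.57 and 2.79 in the ileum, the bottom group first. The jejunal intervals overlapped on this plain scale. Flii (0.66 ± 0.11, adjusted p = 0.00185) and Svil (0.72 ± 0.11, adjusted p = 0.000926, both edgeR) rose less, and Flii was level in the jejunum at 0.755 and 0.771. Avil (1.54 ± 0.54, adjusted p = 0.0421, edgeR) rested on 30 UMIs at the bottom and 63 at the top, and its call was lost in 7 of 15 alternative settings. These included the fits without the jejunal or the ileal library (0.76 without the latter), DESeq2, clusters made without integration of the libraries and a fit of the top and bottom groups only. Vil1 did not pass (0.31 ± 0.11, adjusted p = 0.0519, edgeR). Its plain levels rose from 9.92 to 11.3 in the duodenum but fell from 13.6 to 12.1 in the jejunal library and from 15.5 to 13.3 in the ileum. Scaling matters here, since library sizes alone put the median of all genes at -0.43 in place of -0.06, and 4 members then passed. The calls of Avil (1.12, adjusted p = 0.105) and Flii (0.29, adjusted p = 0.0556, both edgeR) were lost under that scaling. Apoa4 gave 68.4%, 80.1% and 42.5% of the landmark UMIs from duodenum to ileum, and without it 6 members passed as well. The groups also differed in depth and mitochondrial share: the median fell from 14957 UMIs at the bottom to 9498 at the top of the duodenum, and the median mitochondrial share fell from 15.9% to 9.05% in the ileum but was 28.2% and 28.9% in the duodenum. Their part in the differences was not tested. Of the ordered cells, 53.0%, 74.8% and 35.8% lay within 0.05 of a limit between groups.

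**Figure D5:**
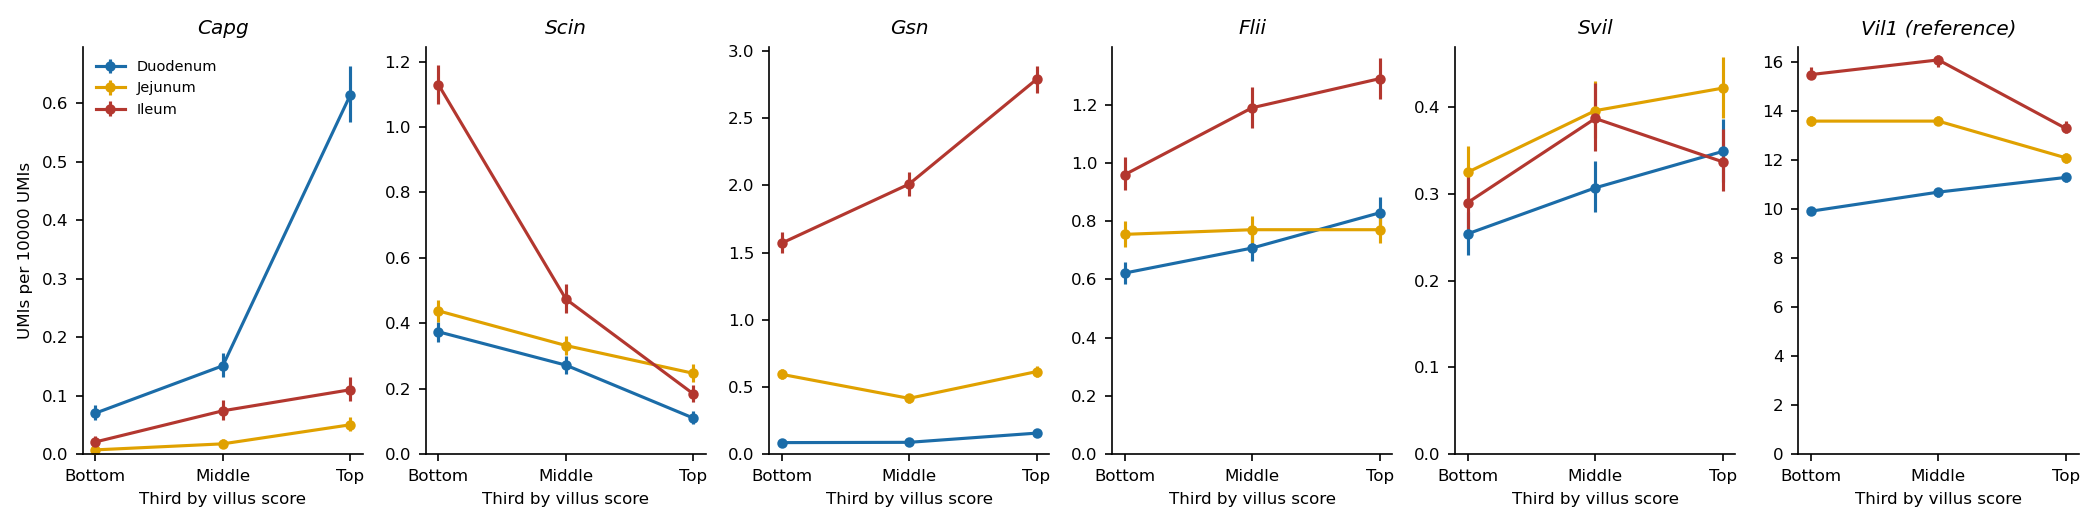
UMIs per 10000 UMIs (y axis, starting at 0) in the bottom, middle and top group of enterocytes by villus score (x axis) for 5 members and Vil1 as reference, 1 line per library with exact 95% Poisson intervals. Capg climbs to 0.614 in the duodenal top group, and Scin declines in all 3 libraries.

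Genes with the most similar pattern over the 30 class and library sums were listed for each member by Pearson's r of log2 CPM among 12760 genes, as a description in which sums share libraries and enterocyte RNA. Avil was closest to Mlip, Rgs22 and Dgki (r = 0.92 each). Vill was closest to Spire1 (0.83), which encodes an actin nucleator, Anxa3 (0.81) and Gadd45b (0.70). Gsn was closest to Arpc2 (0.80), a subunit of the Arp2/3 complex, Fhl1 (0.80) and Capzb (0.75), a subunit of the capping protein. Scin was closest to C530008M17Rik (0.82), Cdkn2b (0.81) and Ralgapa2 (0.80). Capg was closest to Rasgrp3 (0.72), Tnfrsf13c (0.71), which encodes the BAFF receptor of B cells, and Fcrla (0.70). Flii was closest to Ywhaz (0.92), Hexim1 (0.86) and Myo1a (0.85), a brush border myosin. Svil was closest to Atn1 (0.89), Retreg2 (0.86) and Furin (0.86).

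The members were set beside 29 other genes of actin turnover (cofilins, capping protein, tropomodulins, twinfilins, profilins, thymosins, coronins and related genes), of which 27 could be tested. Against enterocytes, 2 were higher and 5 lower in early enterocytes, 4 and 17 in ISC, 3 and 7 in goblet cells, 2 and 14 in tuft cells, 4 and 16 in EECs, 6 and 10 in T cells and 6 and 11 in B cells. The shares of all genes called in either direction were 41.2%, 63.8%, 39.5%, 46.9%, 55.2%, 63.2% and 56.7% in the same order. With library sizes alone in place of TMM these splits were 4 and 3, 5 and 8, 3 and 6, 4 and 7, 8 and 11, 13 and 5, and 9 and 6, so the direction of the list as a whole depended on the scaling in early enterocytes, T cells and B cells. Eps8, a brush border capping and bundling protein, was among the 2 most lowered in 5 of these comparisons, with log2 fold changes of -3.33 ± 0.30 in tuft cells, -3.66 ± 0.30 in ISC, -2.50 ± 0.29 in EECs, -1.58 ± 0.27 in early enterocytes and -1.27 ± 0.27 in goblet cells. The other lowered ones were Coro1c in tuft cells (-2.47 ± 0.28), Pfn2 in ISC (-3.11, not called with library sizes alone), Tmsb4x in EECs (-2.53 ± 0.48), Tmsb10 in early enterocytes (-1.50 ± 0.30) and Gmfb in goblet cells (-2.49 ± 0.27).

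The highest listed genes were Tmsb10 (1.97 ± 0.31) and Twf2 (1.49 ± 0.36) in goblet cells, Twf2 (2.35 ± 0.41) and Coro1a (2.09 ± 0.76) in tuft cells, and Tmod2 (8.83 ± 0.86) and Pfn2 (3.14 ± 0.64) in EECs. Coro1a, a coronin of blood cells, led in T cells (8.60 ± 0.71), B cells (8.88 ± 0.72) and ISC (3.53 ± 0.61), followed by Twf2 in T cells (4.14 ± 0.37) and B cells (3.03 ± 0.42) and by Add3 in ISC (3.11 ± 0.34). Dstn and Cttn were the lowest in T cells (-3.69 ± 0.34 and -3.48 ± 0.32) and in B cells (-3.25 ± 0.34 and -3.35 ± 0.39). In early enterocytes Add3 (2.57 ± 0.33) and Cfl2 (0.56 ± 0.20) were highest. Along the villus 16 of 27 were higher and 3 lower at the top, beside 50.5% of all genes called in either direction, or 8 and 7 with library sizes alone. They were led by Tmsb4x (2.42 ± 0.21) and Tmsb10 (1.74 ± 0.14) among the higher and Add3 (-2.41 ± 0.24) and Pfn2 (-1.28 ± 0.47, not called with DESeq2 size factors) among the lower. All values in these 2 paragraphs are log2 fold changes with SE whose adjusted p passed 0.05 (edgeR).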

How the data were processed

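Live cells of the duodenum, jejunum and ileum of WT mice were profiled by 10x Genomics 3′ single-cell RNA sequencing, 1 library of 3 pooled mice per segment. The matrices deposited by the authors hold raw UMI counts per gene and cell (Cell Ranger 3.0.2 and GRCm38 in the submitters' processing notes), without normalization. As in the study, cells were kept at 800 to 50000 UMIs, 200 to 6000 genes and a mitochondrial share up to 40%. Cells were clustered in Seurat 5.3.0 (2000 variable genes without the members and Vil1, 30 principal components, integrated over libraries, resolution 0.8). Clusters were named from marker lists, by naming rules completed after the clusters had been seen. Scrublet (scanpy 1.11.5) called 0, 0 and 146 doublets, a rate too low in duodenum and jejunum to rely on, and these cells were kept. UMIs were summed per class and library where at least 10 cells were present (30 sums), filtered with filterByExpr, scaled by TMM and tested with edgeR 4.0.16 (R 4.3.3; glmQLFit and glmQLFTest, library as a block, adjusted p under 0.05). The bottom, middle and top groups of enterocytes were tested likewise. The script was tested on simulated data. Poisson and binomial intervals (95%, scipy 1.17.1) cover counting error only. Members, Vil1, the 3 genes most similar to each member and the 2 highest and 2 lowest called genes of the actin list are named. The members and lists were chosen with earlier results of these data known. Alternatives included DESeq2 1.42.0.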

Additional observations from a re-analysis of the deposited data

Results flagged for a closer look

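Gsn in EECs relative to enterocytes went in different directions between libraries. The ratio of levels was 1.94 in the duodenum (1.10 to 3.18), but 0.379 in the jejunal library (0.139 to 0.826) and 0.613 in the ileum (0.498 to 0.746). Capg in early enterocytes relative to enterocytes was likewise 1.65 in the jejunal library (lower limit 1.06) and 0.547 in the duodenum (0.445 to 0.666). Each segment was 1 library, so these differences between segments were not tested.

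Members were also high in cells outside the named classes. In an unnamed cluster of 74 cells led by Il1b, Lyz2 and H2-Eb1, Gsn reached 9.31 UMIs per 10000 (8.75 to 9.90). In another of 61 cells led by Gp2, Dcn and Ccl20 it reached 30.0 (28.7 to 31.3), with 11.9 in the duodenum, 39.2 in the jejunal library and 32.3 in the ileum. Of the marker lists, macrophage markers summed highest in that cluster, at 178 UMIs per 10000, followed by enterocyte markers at 163 and the 10 stromal genes at 36.2. In the other unnamed clusters the stromal genes summed to between 0.0246 and 0.865. Macrophage markers summed there to between 0.426 and 88.0, and enterocyte markers to between 30.2 and 407. The cells of the cluster with 61 cells were given no name. A cluster led by Dcn and Lyz2 was called macrophages without integration (55 cells) and with the members among the clustering genes (54 cells). The macrophage class then held 83 and 80 cells in place of 26. The macrophage levels given above rest on those 26 cells. Svil was at 1.06 (0.812 to 1.37) in an unnamed cluster of 411 cells led by Bcl2, Ikzf2 and Ptprc, whose median depth was 0.199 times that of their own libraries. The intervals of all 3 clusters lay above those of every named class summed over the libraries. For Svil this did not hold within the ileum, which gave 322 of the 411 cells: their interval (0.824 to 1.47) overlapped that of ileal EECs (0.475 to 0.843).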

How the results depend on the processing

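Of 142 counts of called members under alternative settings, 129 stayed within 1.5 times the reported count. In early enterocytes 2 members were called, against 1 with library sizes alone, 4 without a filter on low counts, 4 with a 20% limit on mitochondrial UMIs and 5 with only the 2 classes in the fit. In EECs 4 were called, against 2 with DESeq2 size factors, and in T cells 4, against 2 with library sizes alone, 2 with DESeq2 and 1 without library as a block. Between top and bottom of the villus 6 were called, and 0 without library as a block. Leaving out a library gave 0 to 2 members in early enterocytes, 3 in EECs and 2 to 4 in T cells. Of 551 fold changes of called members, 501 kept their call, 49 lost it and 1 turned: Capg in T cells, with -0.23 to 2.14 over the left-out libraries and -0.23 without the jejunum. Between 2 and 4 members passed 2-fold between ileum and duodenum. The log2 ratio of Scin was 0.97 without mitochondrial UMIs in the denominator and 0.85 without integration, and that of Capg was -0.64 in early enterocytes.

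Of 98 levels, 91 moved by less than their spread between libraries. Avil in tuft cells was 12.8 with the 20% limit and 13.9 without mitochondrial UMIs in the denominator, which also moved Flii to 1.23 in tuft cells and 1.11 in enterocytes and Svil to 0.443 in enterocytes. Vill in enterocytes was 0.00253 with the 20% limit, and Capg in B cells 2.34 with the members among the clustering genes. Leaving Apoa4 out of the villus score was chosen after seeing the data. The cause of these changes was not tested. The class and villus fits compare sums within libraries. Low counts limit Vill everywhere, and Avil outside tuft cells.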
